A study of Mus musculus with 4 samples.

Results

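The RNA levels of 10 transcription factor genes of the ETS family were described in wild-type B1a and B2 cells of C57BL/6 mice, namely Ets1, Ets2, Elf1, Elf2, Fli1, Etv3, Etv6, Gabpa, Spi1 and Spib. They were listed by name as members of the family, out of 20599 gene symbols in the expression tables, with earlier results of these data known. B1a cells were sorted from peritoneal washes (2 libraries), and follicular B cells, called B2 here, were sorted from spleen (2 libraries). B1a cells were gated with markers that included CD23- IgM+ CD5+ and B2 cells with markers that included IgD-high IgM-low CD21+, and all mice were untreated and wild-type by their labels. The methods call them littermates of Dnmt3a-deficient animals in one place and name C57BL/6J mice as the controls in another, and whether they carried the Cre transgene used for the deletion is not stated for these libraries. The labels give an age of 4 weeks for both groups, whereas the methods give an older age for the mice with B2 cells. The effects of cell type, tissue and possibly age thus cannot be told apart in this design.

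ETS factors share a DNA-binding domain, the ETS domain, that recognises a core of the bases GGAA with different preferences for the bases around it. In B cells, PU.1 (encoded by Spi1) and Spi-B (Spib) bind the promoters and enhancers of many B cell genes, alone or together with interferon regulatory factors, and Ets1 restrains the step from B cell to plasma cell. The study dealt with enhancers whose DNA methylation is maintained by DNMT3A, and motifs of SPI1 and ETS1 were among many that it found enriched there. The question here is which factors that could read ETS motifs were transcribed in each cell type, and at which level.

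The libraries held 11578785 and 11558489 counts for B1a and 11032732 and 18588623 counts for B2. Levels are given as CPM (counts relative to a fixed number of counts in the library) after TMM scaling, which corrects for differences in the make-up of the libraries. At these depths 3 counts, taken as the floor of detection for counting error only, correspond to between 0.161 and 0.272 CPM, and every ETS gene of the 10 lay far above it in every library. The B2 libraries resembled each other (Pearson's r = 0.982 across 13119 genes) more than the B1a libraries did (r = 0.902). B1a replicate 2 was as close to the B2 libraries (r = 0.913 and 0.905) as to B1a replicate 1, which stood at r = 0.879 and 0.872 to the B2 libraries. The 2 libraries of each group were compared by edgeR's quasi-likelihood F test, p-values were adjusted by the Benjamini-Hochberg procedure over 12078 genes, and a gene was called at an adjusted p under 0.05. Log2 differences are given as B1a over B2, so that negative values mean a higher level in B2, and each carries its standard error (SE).

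The labelled cell types were checked with marker genes. The B cell genes Cd79a, Cd79b, Ms4a1 and Pax5 were detected in all 4 libraries, with Cd79b at 1232 and 1131 CPM in B1a and at 890.4 and 944 CPM in B2. The B1a list (Cd5, Zbtb32, Bhlhe41 and Spn) summed to 1034 and 766 CPM in B1a against 69.3 and 73.4 CPM in B2, and the follicular list (Fcer2a, which encodes CD23, and Cr2, which encodes CD21) to 162 and 153 CPM against 1902 and 1942 CPM. Cd5, Fcer2a and Cr2 encode proteins of the sort gates. Genes of other cells were also present, in sums that reached the levels of several of the 10 ETS genes. The 5 erythroid genes summed to 78.8 and 504 CPM in B1a and to 36.1 and 80.8 CPM in B2. The 9 macrophage genes summed to 224 and 263 CPM in B1a and 67.8 and 73.5 CPM in B2, and the 4 mast cell genes to 39.4 and 9.8 CPM against 0 and 0.941 CPM.

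Promoter sequences were read to see how often the ETS core occurs in promoter windows of the ETS genes themselves. RefSeq promoter windows of 250 bases (build GRCm38.p6) were matched for 7 of the 10 genes, in 9 windows. None was at hand for Ets1, Fli1 and Spi1, so the motif counts do not cover these genes. The core GGAA, or TTCC where it lies on the other strand, was found in 8 of the 9 windows, whereas 93.4% of all 32851 promoter windows of this length hold it, with a median of 3 matches. A longer ETS1-type form, CCGGAAGT, was in none of the 9 windows and in 2.88% of all windows, and the PU.1-type form GAGGAAGT was in 1 window, that of Gabpa, and in 2.44% of all windows. Both longer forms contain the core, and both strands were searched. The 3 sequences below, each ending at the annotated start of its gene, differ in the number of core matches, from 1 (Ets2, chr16:95702157-95702406, plus strand) through 3 (Etv6, chr6:134035450-134035699, plus strand) to 6 (Etv3, chr3:87525328-87525576, plus strand). Capitals mark the core on either strand, and a match is a string of letters, not evidence of binding.
Ets2: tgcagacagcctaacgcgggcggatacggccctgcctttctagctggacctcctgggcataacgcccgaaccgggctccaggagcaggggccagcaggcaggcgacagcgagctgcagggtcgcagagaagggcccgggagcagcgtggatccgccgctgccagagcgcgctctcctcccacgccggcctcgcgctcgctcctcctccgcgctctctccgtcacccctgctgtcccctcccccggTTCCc
Etv6: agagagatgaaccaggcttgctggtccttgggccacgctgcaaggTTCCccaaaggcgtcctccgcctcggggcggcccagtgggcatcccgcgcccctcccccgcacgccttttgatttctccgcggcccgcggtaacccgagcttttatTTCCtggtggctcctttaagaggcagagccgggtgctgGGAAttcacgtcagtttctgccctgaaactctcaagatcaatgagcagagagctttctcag
Etv3: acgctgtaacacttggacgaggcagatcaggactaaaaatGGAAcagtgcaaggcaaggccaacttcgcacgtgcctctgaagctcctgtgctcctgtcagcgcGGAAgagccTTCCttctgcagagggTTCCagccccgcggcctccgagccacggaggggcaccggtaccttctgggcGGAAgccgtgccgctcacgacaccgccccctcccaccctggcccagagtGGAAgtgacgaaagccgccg
The number of matches was 6 or 1 in the windows of Elf2, 5 in that of Gabpa, 2 or 0 in those of Elf1 and 1 in that of Spib. Not all windows lie before the outermost start of the gene. The Elf2 window with 6 matches and the Elf1 window with 0 lie inside the annotated genes. The Elf2 window with 1 match runs into the gene, where its match lies, and its 211 bases before the gene hold 0 matches. The Gabpa window (chr16:84834874-84835123) begins just before the gene and lies mostly inside it.

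Of the 10 ETS genes, 1 was called, Fli1, and it was higher in B2. Of all 12078 genes tested, 5.84% were called, 4.31% as higher in B1a and 1.53% as higher in B2, so that 1 call among 10 genes is close to the background. The level was higher in B2 for 9 of the 10 genes, the exception being Ets2, against 51.5% of all genes tested. The median log2 difference was -0.29 over the 10 genes and -0.03 over all genes. The levels of the B1a libraries did not overlap those of the B2 libraries for 8 of the 10 genes, against 54.3% of all genes, and 7 of these 8 were higher in B2, whereas 29% of all genes tested were both without overlap and higher in B2. Fewer expressing cells and less RNA per cell cannot be told apart in such bulk samples.

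**Figure D1:**
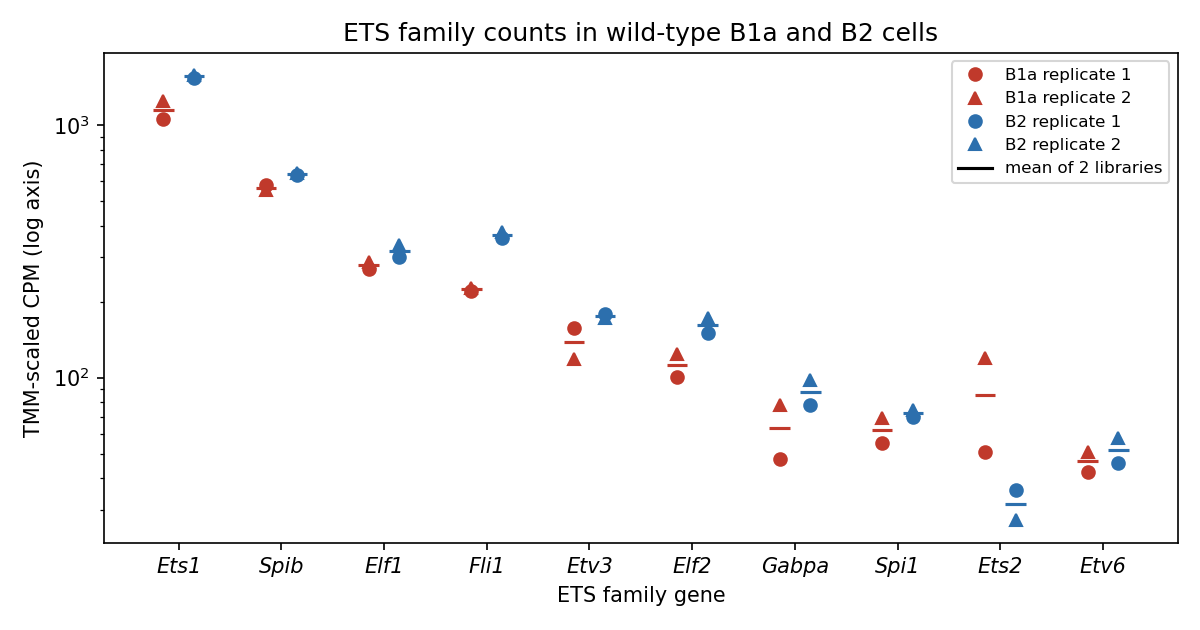
Level of each ETS gene in each of the 4 libraries, as TMM-scaled CPM on a log axis, with genes on the horizontal axis in order of their mean level. Red marks stand for B1a and blue for B2, circles for replicate 1 and triangles for replicate 2, and short lines for the mean of the 2 libraries. The Ets1 points lie highest, between 1056 and 1577 CPM, the Fli1 groups are separate, and Ets2 is the one gene with both B1a points above both B2 points.

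Fli1 and Ets1 are neighbours on chromosome 9. Fli1 (chr9:32422204-32543432, minus strand) encodes a factor of blood and endothelial cells that takes part in B cell development, and Ets1 (chr9:32636241-32757820, plus strand) encodes the factor that holds back plasma cell formation. The genes point away from each other, with 92808 bases and no protein-coding gene between them.

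Fli1 was read at 221 and 227 CPM in B1a and at 357 and 377 CPM in B2. Both B2 libraries were above both B1a libraries, and replicates lay within 1.06 times of each other. The level was 1.64-fold higher in B2 (log2 difference -0.71, SE 0.12, 95% interval -1.0 to -0.42, adjusted p = 0.0267). The call was lost when either B2 library was left out (adjusted p = 0.0963 without B2 replicate 1 and 0.192 without B2 replicate 2), while the log2 difference stayed between -0.75 and -0.68. Megakaryocytes and endothelium also use Fli1. The 4 platelet genes summed to at most 7.8 CPM in any library, all of it from Gp9 in B1a replicate 1, and Pf4 and Ppbp were at 0 in both B1a libraries and at most at 0.52 CPM in B2. The 6 endothelial and mesothelial genes summed to at most 2.86 CPM. The endothelial gene Cdh5 was at 0 in both B1a libraries and at 1.56 and 1.2 CPM in B2, the same direction as Fli1. Kdr was read in B2 replicate 1 alone, at 0.347 CPM. Tek went the other way, at 0 and 1.17 CPM in B1a and at 0.347 and 0 CPM in B2. The part of endothelial cells in the Fli1 values was not tested.

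Ets1 was read at 1056 and 1245 CPM in B1a and at 1543 and 1577 CPM in B2. The groups did not overlap, and the 2 B2 values differed by less than the 2 B1a values did. The level was 1.36-fold higher in B2 but did not pass the threshold (log2 difference -0.44, SE 0.11, adjusted p = 0.0952), although 7 of 12 alternative tests and filters called it, with adjusted p between 0.000657 and 0.108 over the 12. T cells, which carry much Ets1 and Fli1 RNA, were also looked for. The 7 T cell genes in the table summed to 70.6 and 35.6 CPM in B1a and to 55.8 and 66.2 CPM in B2. Cd3d, Cd8a and Cd8b1 overlapped between the groups and reached 18.3, 23.8 and 22.9 CPM. Cd3g also overlapped, at 10.4 and 0.18 CPM in B1a and 0.867 and 2.04 CPM in B2. Cd3e was higher in B2 without overlap, at 2.6 and 0.899 CPM in B1a and 3.47 and 2.67 CPM in B2. Cd4 (3.21 and 3.24 CPM) and Cd28 (1.39 and 3.76 CPM) were read in B2 and were at 0 in both B1a libraries. None of the 7 was called, and the part of T cells in the Ets1 and Fli1 values was not tested. The neighbouring genes Ets1 and Fli1 were both read at higher levels in B2, and the difference passed the test for Fli1 alone.

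Ets2 (chr16:95702407-95721049, plus strand) encodes the closest relative of Ets1, a factor whose activity is raised by MAP kinase signalling. It was read at 50.7 and 120 CPM in B1a and at 35.8 and 27.2 CPM in B2. B1a replicate 2 was the highest of the 4 libraries and lay 2.36 times above B1a replicate 1, the widest gap between replicates of any of the 10 genes. The mean was 2.71-fold higher in B1a but did not pass the threshold (log2 difference 1.44, SE 0.44, 95% interval 0.36 to 2.52, adjusted p = 0.147). The log2 difference was 0.69 without B1a replicate 2 and 1.93 without B1a replicate 1, so that its size depended on which B1a library was kept. The summed level of the 5 erythroid genes was also highest in B1a replicate 2, at 78.8 and 504 CPM in B1a and 36.1 and 80.8 CPM in B2. Alas2 of this list was instead lowest there, at 5.56 and 3.96 CPM in B1a and 5.38 and 4.81 CPM in B2. The macrophage sum was also highest in B1a replicate 2 (224 and 263 CPM in B1a), and the mast cell sum in B1a replicate 1 (39.4 and 9.8 CPM). The part of these cells in the Ets2 values was not tested. Ets2 was deposited as 2 entries with equal counts, between which the authors' counting divided the reads, and the entries were summed here.

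The PU.1 group holds Spi1 and Spib. Spi1 (chr2:91082374-91115759, plus strand) encodes PU.1, which is needed early in myeloid and B cell development, and Spib (chr7:44525995-44532087, minus strand) encodes Spi-B, which shares much of the PU.1 binding preference and is restricted to lymphoid and plasmacytoid dendritic cells. Spi1 was read at 55.1 and 68.9 CPM in B1a and at 70.1 and 74.4 CPM in B2 (log2 difference -0.22, SE 0.22, adjusted p = 0.667). Spib was read at 580.1 and 553 CPM in B1a and at 633 and 647 CPM in B2 (log2 difference -0.18, SE 0.10, adjusted p = 0.41).

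The B2 values were the higher ones for both genes, without overlap, yet the 95% intervals ran from -0.77 to 0.33 for Spi1 and from -0.43 to 0.07 for Spib and so included no difference. Macrophages carry much Spi1 RNA. Their genes, of which 8 of 9 exceeded 3 counts in both B1a libraries and 7 of 9 in both B2 libraries, summed to a higher level in B1a, where Spi1 was lower, and their part in the Spi1 level was not tested. Lyz2 made up most of the sum in B1a, at 127 and 136 CPM against 16.8 and 27.2 CPM in B2, and was the one gene of the list that was called (log2 difference 2.57, SE 0.29, adjusted p = 0.00766). Adgre1, C1qa, C1qb, Cd68 and Cd14 also had their higher values in B1a, without overlap, while Csf1r overlapped and Fcgr1 was at 0 in 3 of the 4 libraries. The defining macrophage genes Csf1r and Adgre1 were read at 16.9 and 21.9 CPM and at 27.7 and 39.0 CPM in B1a, and at 21.2 and 18.3 CPM and at 8.24 and 11.9 CPM in B2. The 6 dendritic cell genes, of cells that use both factors, summed to 20.1 and 33.3 CPM in B1a and 46.4 and 35.6 CPM in B2. Xcr1, the largest part, overlapped, at 13.9 and 20.3 CPM in B1a and 33.2 and 19.8 CPM in B2. Siglech and Flt3 overlapped too, and Itgax and Batf3 were higher in B2 without overlap. Zbtb46 went the other way, at 3.59 and 2.07 CPM in B1a and 0.954 and 0.418 CPM in B2. The part of these cells in the Spi1 and Spib values was not tested. The neutrophil genes S100a8, S100a9 and Retnlg were at 0 in both B1a libraries and summed to 1.21 and 6.64 CPM in B2.

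Elf1 and Elf2 encode 2 closely related factors that bind promoters of lymphoid genes. Elf1 (chr14:79481174-79582491, plus strand) was read at 270.2 and 287 CPM in B1a and at 301 and 334 CPM in B2 (log2 difference -0.19, SE 0.13, adjusted p = 0.485). Elf2 (chr3:51252720-51340683, minus strand) was read at 100.5 and 124 CPM in B1a and at 150.5 and 172 CPM in B2 (log2 difference -0.52, SE 0.18, adjusted p = 0.182). Both were higher in B2 in all 4 pairs of libraries, and neither passed the test. Exons of Elf1 share 327 bases with those of Wbp4 on the opposite strand, and those of Elf2 share 371 bases with 4930577N17Rik, also on the opposite strand. Whether the counting used strand is not given in the sources used here, so reads from these bases cannot be told apart.

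Etv3 and Etv6 encode repressors. Etv3 (chr3:87525577-87540158, plus strand) is known for slowing proliferation in macrophages, and Etv6 (chr6:134035700-134270158, plus strand), also called TEL, is needed for blood stem cells and is a frequent partner in leukemic gene fusions. Etv3 was read at 157 and 118 CPM in B1a and at 179 and 173 CPM in B2 (log2 difference -0.36, SE 0.18, adjusted p = 0.356). Etv6 was read at 42.4 and 50.9 CPM in B1a and at 45.7 and 57.6 CPM in B2 (log2 difference -0.15, SE 0.26, adjusted p = 0.831). The Etv3 groups were separate and the Etv6 groups overlapped, and the direction for Etv6 turned to 0.02 without B2 replicate 2. Exons of Etv6 share 135 bases with the antisense gene Gm17089, with the same strand limit as for Elf1 and Elf2.

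Gabpa (chr16:84834891-84863783, plus strand) encodes the DNA-binding subunit of GABP, which drives many genes of mitochondrial function. It was read at 47.8 and 78.2 CPM in B1a and at 78.0 and 97.9 CPM in B2, so that the higher B1a library reached the lower B2 library. The log2 difference was -0.48 (SE 0.30, 95% interval -1.21 to 0.25, adjusted p = 0.442), and it was -0.88 without B1a replicate 2 and -0.17 without B1a replicate 1. The replicate libraries of B1a differed 1.64-fold for this gene. Exons of Gabpa share 397 bases with those of Atp5j on the opposite strand, with the same limit.

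**Figure D2:**
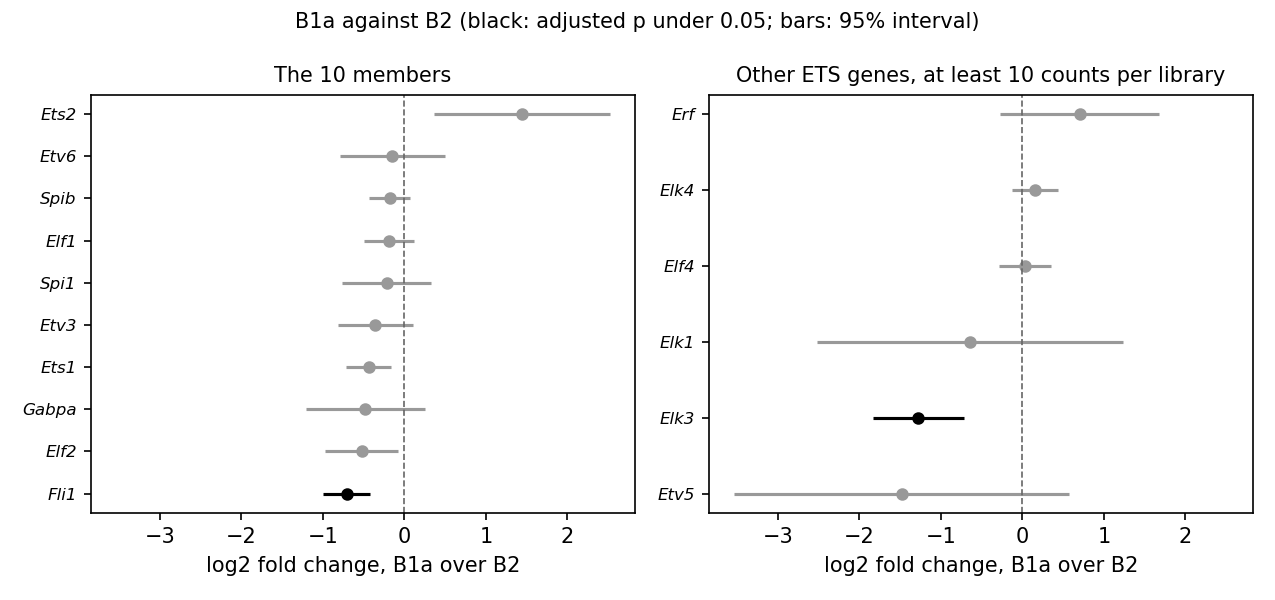
Log2 fold change of B1a over B2 on the horizontal axis for the 10 ETS genes (left) and for 6 other ETS family genes with at least 10 counts in each library (right). Points are edgeR estimates, bars their 95% intervals, and black marks an adjusted p under 0.05. Fli1 (-0.71) on the left and Elk3 (-1.28) on the right are the 2 genes in black.

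Levels of different genes were compared per transcript length, as TPM, a count divided by transcript length and scaled to the same total in every library. In B1a the order was Ets1 (mean 525 TPM), Spib (476), Fli1 (165), Elf1 (163), Spi1 (112), Etv3 (60.3), Ets2 (55.6), Elf2 (45.9), Gabpa (29.2) and Etv6 (19.1 TPM). In B2 it was Ets1 (mean 843 TPM), Spib (636), Fli1 (319), Elf1 (221), Spi1 (154), Etv3 (91.5), Elf2 (76.4), Gabpa (48.2), Etv6 (24.8) and Ets2 (24.4 TPM). The first 6 places were the same in both cell types, while Ets2 stood at place 7 in B1a and at place 10 in B2.

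Neighbours in this order were not always apart. In B1a the replicate ranges overlapped between Ets1 and Spib, between Fli1 and Elf1, between Etv3 and Ets2 and between Ets2 and Elf2. In B2 they overlapped only between Etv6 and Ets2. The 10 genes together held 1593 and 1709 TPM in B1a and 2407 and 2469 TPM in B2, which is 1.48-fold more in B2 on this scale. The ratio was 1.27 on summed TMM-scaled CPM, 2581 and 2871 against 3393 and 3537. The TPM scale also moved the median log2 difference of all genes, from -0.0275 to -0.295, and relative to that median the Fli1 difference was -0.68 on TMM-scaled counts and -0.65 on log2(TPM + 1).

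The share of each gene in the summed TPM of the 10 shows the make-up of the family without that shift. Ets1, Spib, Fli1 and Elf1 together held 82.0% and 79.0% in B1a and 83.0% and 82.6% in B2. Fli1 took 9.98% ± 0.501 (SD, n = 2) of the sum in B1a and 13.1% ± 0.131 (SD, n = 2) in B2, a difference of -3.08 points, and Ets1 took 31.8% ± 1.56 and 34.6% ± 0.468, a difference of -2.81 points. With a B1a library left out, the differences ran from -3.44 to -2.73 points for Fli1 and from -3.91 to -1.7 points for Ets1. Shares that were higher in B1a were those of Spib (28.9% ± 2.93 against 26.1% ± 0.356), Ets2 (3.32% ± 1.72 against 1.0% ± 0.223), Elf1 (9.85% ± 0.237 against 9.05% ± 0.425) and Etv6 (1.16% ± 0.0477 against 1.01% ± 0.131), again without overlap. The size of several of these differences depended on the B1a library kept: without B1a replicate 1 and without B1a replicate 2, respectively, it was 0.764 and 4.91 points for Spib and 3.54 and 1.11 points for Ets2. Elf2 took 2.78% ± 0.219 in B1a and 3.13% ± 0.18 in B2. The shares of Spi1, Etv3 and Gabpa overlapped between the groups. With 2 libraries against 2, a two-sided exact permutation test gives p = 0.333 at the least, which is what these non-overlapping shares reached, so this test cannot call any share in this design, and no other test of the shares was run.

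**Figure D3:**
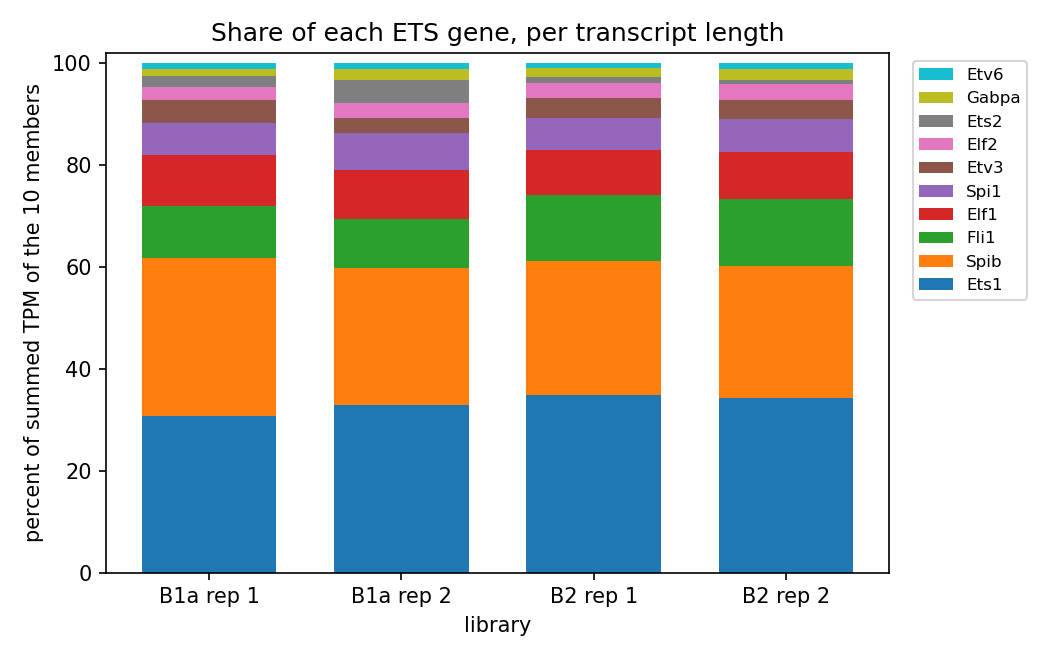
Share of each ETS gene in the summed TPM of the 10 genes, as stacked bars that add to 100%, for the 4 libraries. Ets1 and Spib fill more of each bar than the other 8 genes, and the Fli1 segment is 10.3% and 9.63% in B1a and 13.0% and 13.2% in B2.

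Ratios between related factors were read within each library. Spib exceeded Spi1 by 4.89 and 3.73 times in B1a and by 4.2 and 4.04 times in B2, so the balance of Spi-B and PU.1 RNA overlapped between the cell types. Ets1 exceeded Ets2 by 14.5 and 7.25 times in B1a and by 30.1 and 40.6 times in B2, without overlap. Elf1 exceeded Elf2 by 3.82 and 3.3 times in B1a and by 2.91 and 2.87 times in B2. Ets1 exceeded Fli1 by 2.97 and 3.42 times in B1a and by 2.69 and 2.6 times in B2. These are ratios of TPM, with exact p = 0.333 for each pair except Spib over Spi1 (exact p = 1.0).

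The 3 tested genes whose pattern over the 4 libraries was nearest to that of Fli1, by Euclidean distance of mean-centred log2 CPM, were Fez2 (distance 0.0352), Pigh (0.0756) and Rbmxl1 (0.0793). Fez2 was read at 8.88, 9.17, 15.2 and 15.5 CPM in B1a replicates 1 and 2 and B2 replicates 1 and 2. None of the 3 was called, the adjusted p being 0.489, 0.44 and 0.119.

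Of 16 other ETS family genes, 9 had enough counts for the test and 1 was called (11.1%, beside 5.84% of all genes). A single call among 9 genes is close to that background, and the other settings were not read for these genes. Elk3, a factor that binds with serum response factor and mostly represses, was read at 44.6 and 35.1 CPM in B1a and at 95 and 98.4 CPM in B2, 2.43-fold higher in B2 (log2 difference -1.28, SE 0.23, adjusted p = 0.0322). Its relatives Elk1 and Elk4 did not pass, with log2 differences of -0.64 (SE 0.76) and 0.15 (SE 0.12). Elk4 was read at 449 and 408 CPM in B1a and at 391 and 379 CPM in B2. Elf4, a relative of Elf1, was read at 359 and 319 CPM against 313 and 349 CPM, with overlap of the groups and a log2 difference of 0.03 (SE 0.13). The repressor gene Erf (log2 difference 0.71, SE 0.40), and Etv5 (-1.48, SE 0.84) and Etv4 (-0.08, SE 1.95) of the PEA3 group did not pass either.

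Ehf and Spic were near the floor in one cell type. Ehf, known from epithelia, was read at 13.4 and 5.76 CPM in B1a and at 0.347 and 0.052 CPM in B2, from 150, 64, 4 and 1 counts, and was not called (adjusted p = 0.115). Spic, a PU.1 relative of red pulp macrophages of the spleen, had 0 counts in both B1a libraries and 24 and 31 counts in B2 (2.08 and 1.62 CPM). With the floor of 3 counts put in place of the 0 counts in B1a, the mean Spic level in B2 was 6.87-fold higher. That figure covers counting error only and leaves out the spread between libraries. The log2 difference was -7.62 (SE 2.72), and its interval, at the confidence level used above, ran from -14.66 to -0.58. The size of the Spic difference is thus poorly fixed, and Spic was not called (adjusted p = 0.217). The other 7 genes, Elf3, Elf5, Erg, Fev, Etv1, Etv2 and Spdef, were at 0 or had too few counts.

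Of 12 genes for proteins that work with ETS factors, 3 were called, all higher in B2 (25.0%, beside 5.84% of all genes). This list was written with earlier results of these data known, so the 2 shares are a description only. Irf8, an interferon regulatory factor that joins PU.1 on composite sites, was read at 116 and 103 CPM in B1a and at 395 and 386 CPM in B2 (log2 difference -1.84, SE 0.13, adjusted p = 0.00224). Pax5, the factor that keeps B cell identity and recruits Ets1 to the Cd79a promoter, was read at 268 and 265 CPM in B1a and at 501 and 492 CPM in B2 (log2 difference -0.90, SE 0.11, adjusted p = 0.00959). Runx3 was read at 36.1 and 53.3 CPM against 126 and 118 CPM (log2 difference -1.45, SE 0.25, adjusted p = 0.0296).

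The groups of these 3 genes did not overlap, and the level in B2 was 3.57-fold higher for Irf8, 1.86-fold for Pax5 and 2.73-fold for Runx3. Irf4, the other interferon regulatory partner of PU.1 and Spi-B, had its higher values in B1a, 355 and 529.6 CPM against 262 and 274 CPM, but was not called (log2 difference 0.72, SE 0.20, adjusted p = 0.119). Jun, which joins Ets1 at sites shared with AP-1, was read at 318 and 325 CPM in B1a and 235 and 205 CPM in B2 (0.55, SE 0.13, adjusted p = 0.0774). The GABP partner subunits Gabpb1 (-0.52, SE 0.22) and Gabpb2 (-0.02, SE 0.13), the Runx pair Runx1 (-0.48, SE 0.20) and Cbfb (-0.64, SE 0.18), the acetyltransferases Crebbp (-0.44, SE 0.13) and Ep300 (-0.45, SE 0.13), and the Ets1-binding nuclear body gene Sp100 (-0.61, SE 0.17) did not pass.

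**Figure D4:**
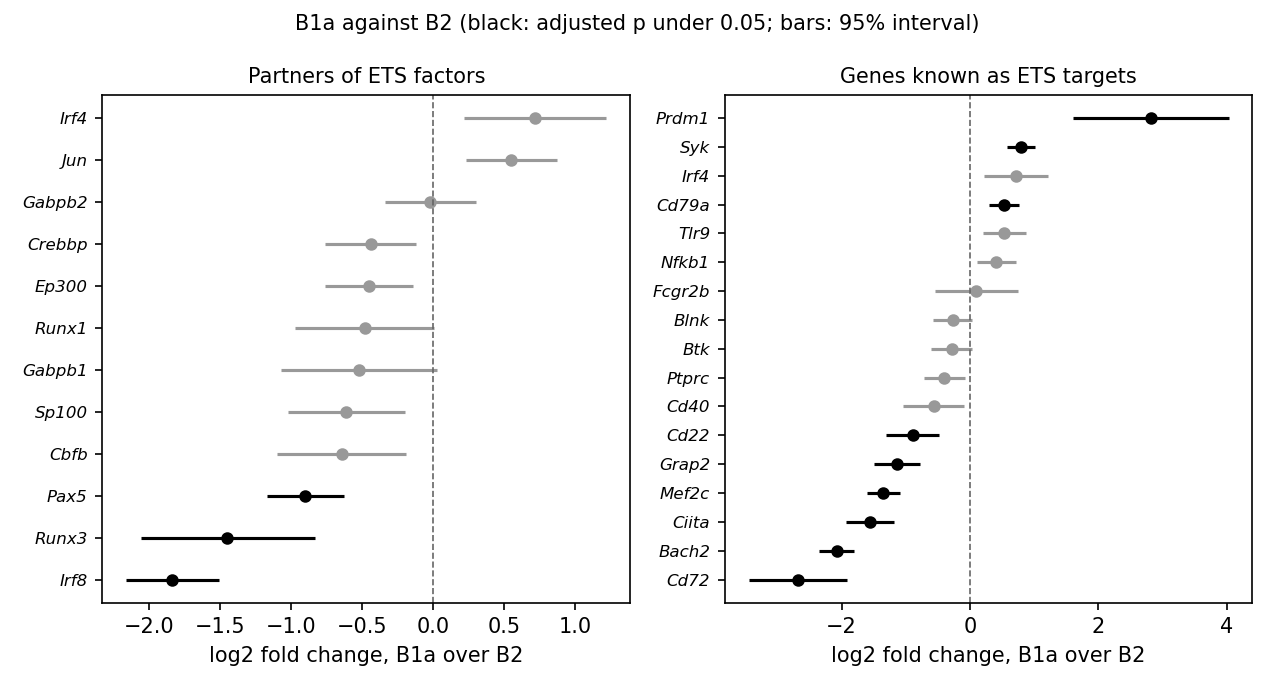
Log2 fold change of B1a over B2 on the horizontal axis for 12 partners of ETS factors (left) and for 17 of 19 listed ETS target genes with more than 3 counts in each library (right). Points are edgeR estimates, bars are 95% intervals and black marks an adjusted p under 0.05. Irf8, Runx3 and Pax5 lie to the left in black, and the called target genes lie on both sides, from Cd72 at -2.68 to Prdm1 at 2.82.

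Genes known to be bound or controlled by PU.1, Spi-B or Ets1 in B cells were called in both directions, 9 of 19. Higher in B1a were Syk, the kinase of the B cell receptor, at 2248 and 2275 CPM against 1279.6 and 1337 CPM in B2 (log2 difference 0.79, SE 0.09, adjusted p = 0.00747), Cd79a, the receptor's signalling chain (0.53, SE 0.09, adjusted p = 0.0306), and Prdm1, which encodes the plasma cell factor Blimp-1 (2.82, SE 0.49, adjusted p = 0.0302). Prdm1 was read at 22.4 and 36.2 CPM in B1a and at 4.16 and 4.13 CPM in B2.

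Higher in B2 were 6 targets. Bach2, which opposes Blimp-1, was read at 169.9 and 180.3 CPM in B1a and at 728 and 744 CPM in B2 (log2 difference -2.07, SE 0.11, adjusted p = 0.00126). The inhibitory receptors Cd72 (-2.68, SE 0.31, adjusted p = 0.00828) and Cd22 (-0.89, SE 0.17, adjusted p = 0.04), the adaptor Grap2 (-1.14, SE 0.14, adjusted p = 0.0107), the factor Mef2c (-1.35, SE 0.11, adjusted p = 0.0028) and Ciita, the master regulator of MHC class II (-1.56, SE 0.16, adjusted p = 0.0051), completed the group. Of the 10 targets that were not called, Ptprc, which encodes CD45 (-0.40, SE 0.13), and Nfkb1 (0.41, SE 0.12) had the highest mean CPM over the 4 libraries. Over the 19 targets the median log2 difference was -0.28, beside -0.03 over all genes. The share called among them, 47.4%, stands beside the background of 5.84%, and the list was written with earlier results of these data known.

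**Figure D5:**
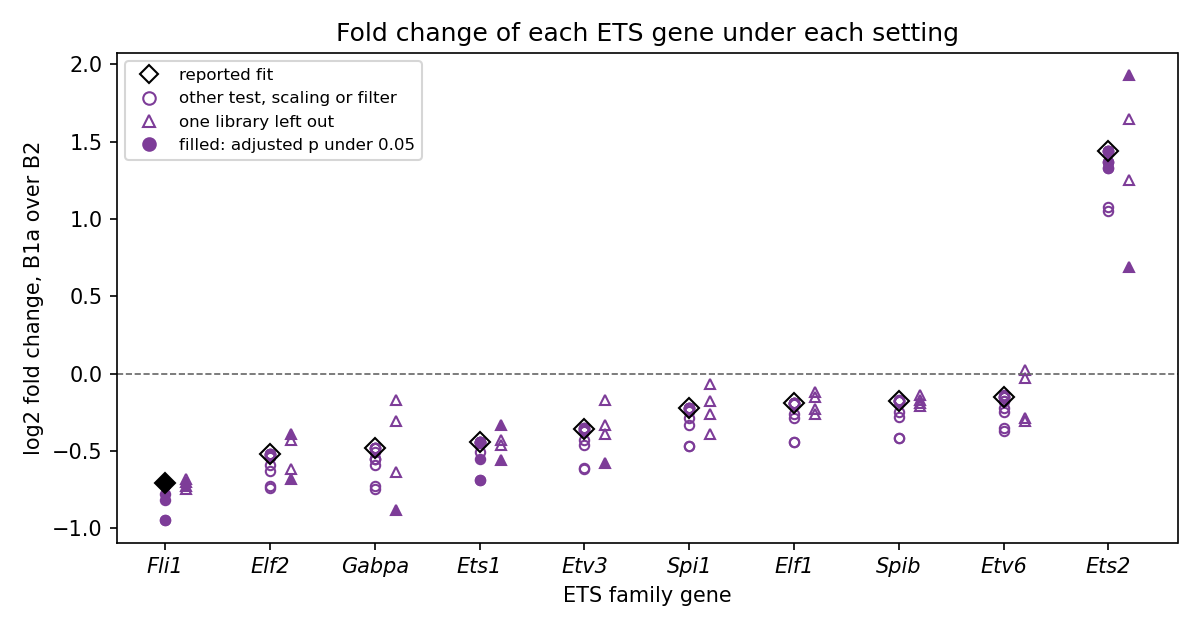
Log2 fold change of B1a over B2 for each ETS gene under each way of processing. Black diamonds show the reported fit, circles another test, scaling or filter, triangles a fit with 1 library left out, and filled symbols an adjusted p under 0.05. All points lie below 0 for Fli1, Elf2, Gabpa, Ets1, Etv3, Spi1, Elf1 and Spib and above 0 for Ets2, and 1 triangle of Etv6 lies at 0.02.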

How the data were processed

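RNA of sorted wild-type B1a (n = 2) and follicular B2 cells (n = 2) was sequenced. The authors aligned reads to mm10, quantified RefSeq genes with RSEM (version 1.2.29 in the submitters' processing notes, another version in the methods) and deposited, per gene entry, an expected count without normalization. They also deposited TPM, which RSEM scales to 1000000 per library, FPKM, which was not used, and a signal value, the posterior standard deviation of each count, which was used to see how reads were divided between entries. The labels name a Kapa HyperPrep kit with RiboErase and the methods a KAPA stranded kit.

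Expected counts of 21970 entries were summed to 20599 symbols, and rounded, and genes passing filterByExpr were compared after TMM scaling by the robust quasi-likelihood test of edgeR 4.0.16 (R 4.3.3) across all genes, with Benjamini-Hochberg adjustment and no fold minimum. The study's EBSeq was not run. Standard errors were derived from the F statistic. Positions and promoters came from RefSeq (GRCm38.p6). The script was tested on simulated data with less spread between libraries than these data have. That test checks the code and cannot give error rates for these libraries. The ETS genes, partners, targets and markers were chosen with earlier results of these data known. The text names all 10 ETS genes, tested relatives, partners, called targets, the 2 most counted targets that were not called, and the 3 genes nearest to Fli1. Alternatives were DESeq2 1.42.0, upper quartile and library-total scaling, limma-voom (limma 3.58.1) with and without a weight for each cell type, 2 other filters, limma on log2(TPM + 1) and log2(TPM + 0.1), a replicate block, entries not summed, a fit that was not robust (chosen after seeing the data), and each library left out. Some marker genes of the lists are not reported here.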

Additional observations from a re-analysis of the deposited data

How the results depend on the processing

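The whole table gave 705 called genes, against 1550 with DESeq2, 1090 with no filter beyond 1 count, 359 with limma on log2(TPM + 0.1), 1479 with the replicate block, 1415 with limma-voom and a weight for each cell type, and 547 to 6251 with a library left out. Calls higher in B1a and in B2 numbered 520 and 185, but 438 and 259 with library totals alone, 266 and 233 with log2(TPM + 1) and 196 and 163 with log2(TPM + 0.1). Among the 10 ETS genes 1 was called, and 3 were with DESeq2, the replicate block and the weights (2 higher in B2 and 1 higher in B1a). With library totals alone, limma-voom, no filter or log2(TPM + 1), 2 were called, both higher in B2. Leaving out a library gave 0 to 5 calls, 0 to 4 higher in B2 and 0 to 1 higher in B1a. These fits let a lone sample vary like the other group. Fli1 passed in 12 of 12 alternatives with all libraries kept (adjusted p between 2.49e-05 and 0.0326, log2 difference between -0.95 and -0.71) and lost the call only without either B2 library. Ets1 passed in 7 of the 12 and Ets2 in 3 (adjusted p between 0.0034 and 0.248), and without B1a replicate 1 or 2 Ets1, Ets2 and Elf2 passed as well. Etv3 passed without B1a replicate 1 only, and Gabpa without B1a replicate 2 only. Etv6 ranged from -0.31 to 0.02 with a library left out. The Etv3 share difference, -0.0783 points, was 0.0144 on expected counts in place of TPM and -0.764 to 0.607 with a library left out, and the Gabpa share difference, -0.219, was -0.563 to 0.126. The cause of these changes was not tested. The replicate differences of the groups did not go together across genes (r = -0.00351). With 1 difference per group, this cannot show whether libraries of the same number share a mouse or a batch. Calls under the replicate block rest on a shared number alone. The libraries come from 2 mice per group by the methods, and depth limits Ehf, Spic and genes near the floor of 3 counts.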
